A study of Mus musculus with 36 samples.

Results

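The genes described are the proteasome subunit genes, taken as every gene whose symbol begins with Psma, Psmb, Psmc, Psmd or Psme followed by a digit, without symbols that join several genes. There were 43 of them among the 12580 genes of the steady-state table and the same 43 among the 12403 genes of the Lyve1 table. By role they comprised 7 alpha-ring subunits (Psma1 to Psma7) and 7 constitutive beta-ring subunits (Psmb1 to Psmb7) of the core particle. The group given apart below held 5 genes, the immunoproteasome subunits Psmb8, Psmb9 and Psmb10 and the activator subunits Psme1 and Psme2. The regulatory particle was represented by 6 ATPases (Psmc1 to Psmc6) and 11 non-ATPase subunits (Psmd1, Psmd2, Psmd3, Psmd4, Psmd6, Psmd7, Psmd8, Psmd11, Psmd12, Psmd13 and Psmd14). The remainder were 3 chaperones of regulatory particle assembly (Psmd5, Psmd9 and Psmd10), the nuclear activators Psme3 and Psme4, and 2 further symbol matches. The first of these, Psme2b, is a near copy of Psme2, so reads could have been split between them, and the other, Psmc3ip, encodes a protein of meiotic recombination and no proteasome subunit.

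RNA was precipitated from homogenates of mouse hemibrain. In these mice an HA tag sits on Rpl22, a protein of the ribosome, in cells where 2 Cre fragments under separate driver genes are both made (Ribo-tag). Precipitates with anti-HA antibody hold RNA on tagged ribosomes together with background, and precipitates with IgG hold background RNA of the tissue. The 36 samples formed 8 groups, and 4 of the samples, the 2 HA and 2 IgG precipitates of Sall1 mice given LPS, were not analysed here. Libraries of 3′ ends (MARS-seq) held between 362063 and 1696679 counts, of which the 43 genes took between 0.544% and 0.743%. The Sall1 line, heterozygous for CX3CR1-CCre, Sall1-NCre and Ribo-tag, tags microglia and gave 6 HA and 6 IgG libraries at steady state. The Lyve1 line, heterozygous for CX3CR1-CCre, Lyve1-NCre and Ribo-tag, tags macrophages at the borders of the brain. It gave 4 HA and 4 IgG libraries 12 h after an intraperitoneal injection of 2.5 mg/kg lipopolysaccharide (LPS, a bacterial endotoxin), and 6 HA and 6 IgG libraries at steady state. The control libraries carried the same alleles as the HA libraries, and no group lacked the tag. The labels do not tell whether libraries within a group stem from different mice, so p-values measure the spread between these libraries, which may be technical. Libraries are named by group and by the pair of numbers in their column heading.

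The tissue labels were checked against markers, given as summed normalised counts (CPM, scaled by the trimmed mean of M values, TMM). The 12 microglial markers summed to 2242 to 4329 CPM in Sall1 HA libraries and to 586 to 641 CPM in Sall1 IgG libraries. The 8 border macrophage markers summed to 77.5 to 211 CPM in Lyve1 HA libraries and to 20.1 to 30.7 CPM in Lyve1 IgG libraries. Only 3 of them were tested, and 3 were higher. Lyz2 was the highest of the list, at 38.7 to 116 against 7.37 to 16.7 CPM, and Pf4 had 10.3 to 31.2 against 0.670 to 2.04 CPM. Lyz2 was also higher in Sall1 HA libraries, at 21.5 to 40.2 CPM, than in Sall1 IgG libraries, at 6.80 to 17.1 CPM. The microglial markers also summed higher in Lyve1 HA libraries, at 880 to 1461 CPM against 521 to 796 CPM in Lyve1 IgG libraries. Much of that difference lay in C1qa, at 291 to 513 against 160 to 304 CPM, and C1qb, at 217 to 441 against 82.4 to 151 CPM. Of 11 microglial markers tested there, 5 were higher and 0 lower, and 3 estimates were negative. Neuronal markers summed to 3743 to 4756 CPM in Sall1 HA libraries and to 4109 to 5416 CPM in Sall1 IgG libraries, so the HA precipitates held much RNA of other cells. Counts of the Y-linked genes Ddx3y and Eif2s3y ran from 15 to 60 in LPS HA libraries and from 29 to 41 in LPS IgG libraries, against 0 to 4 in all steady-state Lyve1 libraries, so LPS and this difference cannot be told apart. In the Sall1 line the libraries numbered 3-1 and 3-2 held 0 to 2 such counts, and the others held 29 to 63. In these bulk precipitates, fewer cells of a type and less RNA per cell cannot be told apart.

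The proteasome is the protease complex that degrades proteins marked with ubiquitin. Its core is a barrel of alpha and beta rings in which Psmb5, Psmb6 and Psmb7 carry the active sites, and its regulatory particle recognises ubiquitin, unfolds the substrate and feeds it into the barrel. In cells exposed to interferon, Psmb8, Psmb9 and Psmb10 take the place of Psmb5, Psmb6 and Psmb7 to form the immunoproteasome, which favours peptides that bind MHC class I. Psme1 and Psme2 form the PA28 cap, an alternative activator that is also induced by interferon. In the brain, immunoproteasome subunits are known mainly from microglia and from inflamed tissue.

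Promoter sequences from RefSeq (GRCm38.p6), running from 250 bases before to 50 bases after the gene start, were found for 37 of the 43 genes, and no entry was found for Psmb1, Psmb2, Psmb7, Psmc3, Psmd3 and Psmd7. They are shown for Psmb8, Psme1 and Psmb9, which were higher after LPS in both precipitates. Psmb9 also shares its start region with Tap1. Capitals mark the single match to a motif named below, and the Psmb9 window had none. The windows of Psmb10 and Psme2, not shown, had none either.
Psmb8 promoter, chr17:34197945-34198244, plus strand: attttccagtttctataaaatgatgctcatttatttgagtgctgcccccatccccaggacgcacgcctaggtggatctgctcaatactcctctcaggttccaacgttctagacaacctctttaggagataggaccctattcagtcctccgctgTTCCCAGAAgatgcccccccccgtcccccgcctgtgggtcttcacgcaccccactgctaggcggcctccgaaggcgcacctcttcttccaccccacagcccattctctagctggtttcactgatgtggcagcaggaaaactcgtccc
Psme1 promoter, chr14:55578244-55578543, plus strand: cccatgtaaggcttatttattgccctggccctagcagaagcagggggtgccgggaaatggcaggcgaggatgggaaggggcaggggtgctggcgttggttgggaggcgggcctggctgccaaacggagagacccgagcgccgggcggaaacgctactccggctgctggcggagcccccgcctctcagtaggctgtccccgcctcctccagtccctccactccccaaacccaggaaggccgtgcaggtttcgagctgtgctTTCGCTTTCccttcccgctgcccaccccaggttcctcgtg
Psmb9 promoter, chr17:34187281-34187580, minus strand: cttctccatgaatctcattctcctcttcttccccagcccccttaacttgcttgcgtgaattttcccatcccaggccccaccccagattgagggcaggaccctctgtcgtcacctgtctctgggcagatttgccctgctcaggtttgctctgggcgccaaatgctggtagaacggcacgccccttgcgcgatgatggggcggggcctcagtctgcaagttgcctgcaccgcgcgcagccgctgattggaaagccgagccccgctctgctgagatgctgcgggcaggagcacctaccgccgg
The sequences were searched on both strands for the interferon regulatory factor type GAAANNGAA, the STAT type TTCNNNGAA and the antioxidant response type TGACTCAGC. The Psmb8 match TTCCCAGAA lies at -97 to -89 relative to the gene start and is of the STAT type. The Psme1 match TTCGCTTTC lies at 10 to 18 and reads GAAANNGAA on the other strand. Proteasome genes were counted once each, with a match in any of their windows, while the shares over all were counted per window. The interferon regulatory factor type was present for 6 of 37 proteasome genes (Psmb3, Psmb4, Psmc2, Psmd4, Psmd9 and Psme1) and in 8.56% of all 32851 promoter windows. The STAT type was present in 2 of 37 (Psmb8 and Psmd2) and in 8.30% of all windows, and the antioxidant type in 0 of 37 and in 0.454% of all windows. The Psmb9 window overlaps that of Tap1, a peptide transporter gene read in the opposite direction, by 275 bases. These letters describe the windows and say nothing of factor binding, which was not measured.

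LPS was compared with steady state in the HA precipitates of the Lyve1 line, to ask which proteasome transcripts on tagged ribosomes differ 12 h after endotoxin. All 5 genes of the immunoproteasome and PA28 group passed the test as higher after LPS, at log2 changes between 0.44 and 1.81 with a median of 0.84. Psmb8 changed most, at 1.81. Of the other 38 genes, 2 were higher (Psmb3 and Psmd2) and 3 were lower (Psmd14, Psmb4 and Psma6). The counts together were 10 of 43 genes, against 17.5% of the 9680 genes tested (9.46% higher and 8% lower). Without LPS HA library 2-2 the count was 5, and 1096 of all genes passed, against 1690 with all libraries. The 43 genes had a median log2 change of -0.05, against -0.02 over all genes.

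Psmb8, the immunoproteasome counterpart of Psmb5, had 74.5, 82.2, 109 and 192 CPM in LPS HA libraries 1-1, 1-2, 2-1 and 2-2, against a lowest of 18.4, a median of 25.2 and a highest of 50.4 CPM in the 6 steady-state HA libraries. Every LPS library lay above every steady-state library. The means were 114 ± 53.6 CPM after LPS (SD, n = 4) and 31.2 ± 13 CPM at steady state (SD, n = 6), a log2 change of 1.81 ± 0.28 (SE, edgeR adjusted p = 6.69e-05). Psmb9, the counterpart of Psmb6, had 14.9, 6.19, 19.8 and 24.3 CPM in the same LPS libraries, against 1.67, 6.82 and 12.9 CPM as lowest, median and highest at steady state. The groups overlapped through library 1-2, and these levels rested on 7 to 27 counts per library after LPS and on 1 to 10 at steady state. Its log2 change was 1.14 ± 0.40 (adjusted p = 0.0417), and the call was lost in 6 of 10 fits that left out a library, among them the one without LPS HA library 2-2 (the highest adjusted p was 0.148).

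Psmb10, the counterpart of Psmb7, had 345, 300, 367 and 405 CPM in the LPS HA libraries and 220, 264 and 300 CPM as lowest, median and highest at steady state. The groups met at their edges. The log2 change was 0.44 ± 0.13 (adjusted p = 0.0143), with an adjusted p of 0.0564 without LPS library 2-2. Psme1 had 144, 172, 182 and 207 CPM after LPS, against 78.3, 102 and 118 CPM as lowest, median and highest at steady state. All LPS libraries were above all steady-state libraries, at a log2 change of 0.81 ± 0.17 (adjusted p = 0.0006). Psme2, its partner in the PA28 ring, had 73.7, 79.6, 107 and 170 CPM after LPS, against 50.4, 58.8 and 68.0 CPM at steady state. These groups did not overlap either, and the log2 change was 0.84 ± 0.19 (adjusted p = 0.0024). Psmb8, Psme1 and Psme2 kept their calls in every alternative run for this comparison.

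The constitutive catalytic subunits did not pass the test. Psmb5 averaged 159 ± 10.5 CPM after LPS and 176 ± 11.5 CPM at steady state, a log2 change of -0.14 with a 95% interval of -0.41 to 0.13. Psmb6 averaged 539 ± 94.1 and 524 ± 29.9 CPM in the same order, with an interval of -0.19 to 0.27. Psmb7 averaged 84.9 ± 23.0 CPM after LPS and 91.6 ± 5.22 CPM at steady state, with an interval of -0.49 to 0.22. None of these intervals reaches the change estimated for Psmb8.

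**Figure D1:**
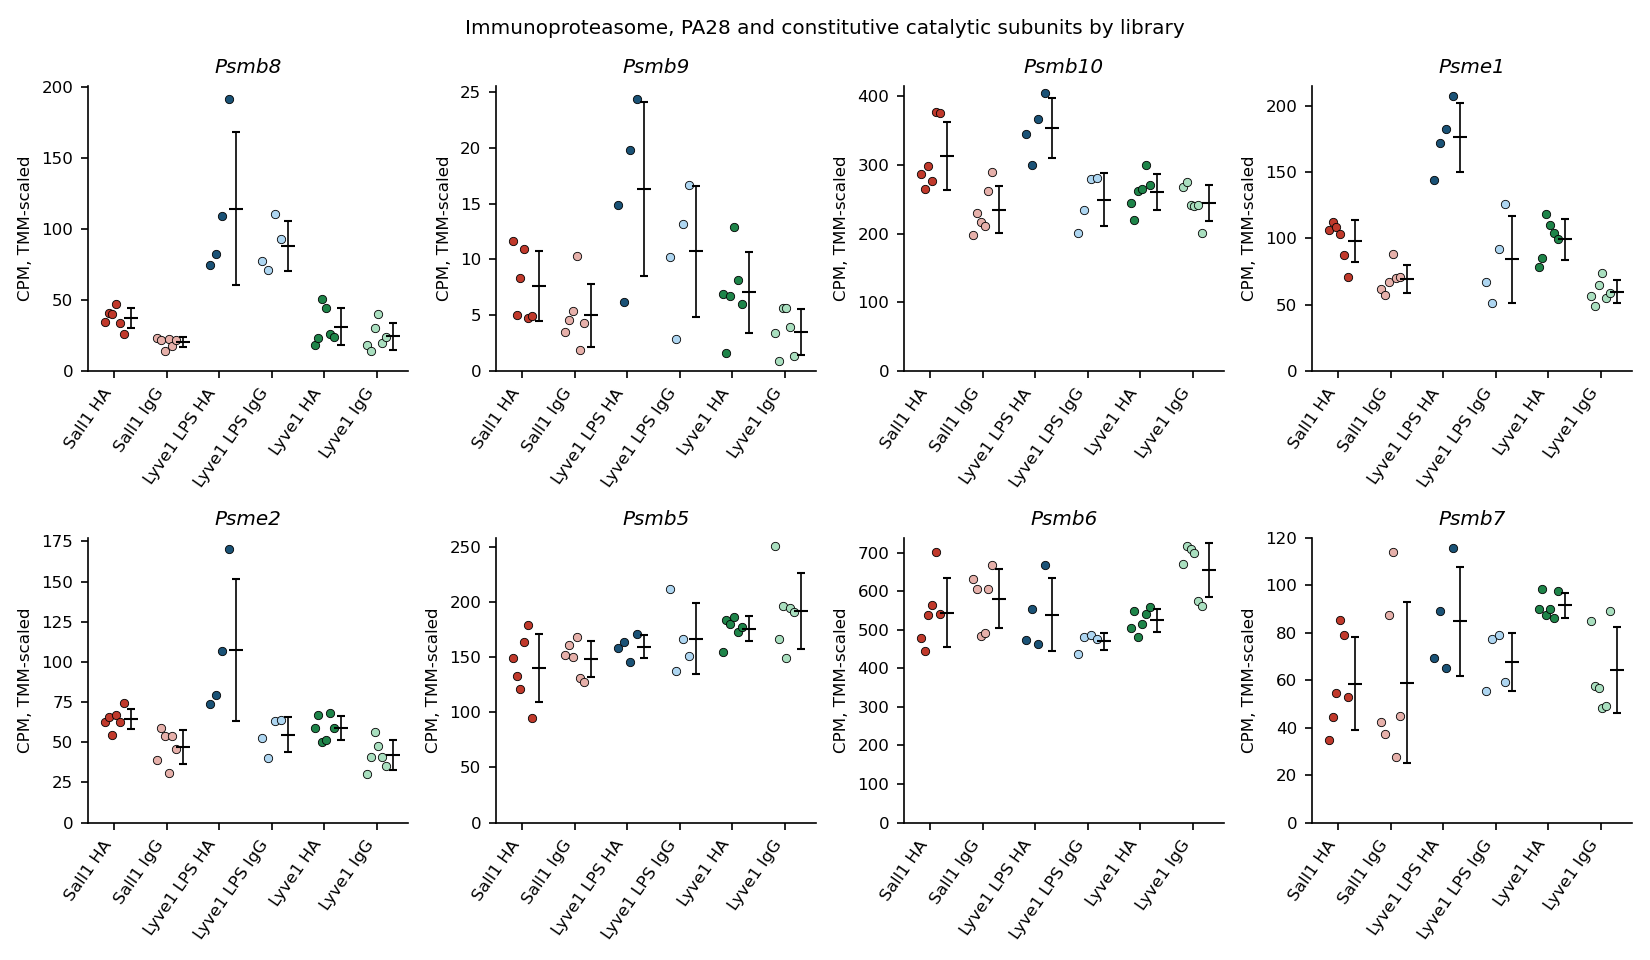
Levels in CPM of the immunoproteasome and PA28 genes and of the constitutive catalytic subunits, 1 point per library with bars at the mean ± SD, for the 6 groups. Sall1 groups come from the steady-state table and Lyve1 groups from the Lyve1 table, which were scaled separately, so heights are to be compared within a line. Psmb8 lies at 74.5 to 192 CPM in the LPS HA libraries, above all steady-state Lyve1 libraries, while Psmb5 overlaps between the same groups.

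The share of Psmb8 in the sum of Psmb8 and Psmb5 counts sets these counterparts against each other within a library. It is read between groups and not as a ratio of proteins. The share was 40.3 ± 9.69% in LPS HA libraries (SD, n = 4), with a range of 32 to 52.9%, against 14.7 ± 4.68% in steady-state HA libraries (n = 6), with a range of 10.7 to 21.9%. In the IgG precipitates it was 34.8 ± 5.84% after LPS and 11.6 ± 5.31% at steady state. In the Sall1 line it was 21.3 ± 3.22% in HA libraries (16.0 to 24.7%) and 12.1 ± 2.04% in IgG libraries (8.55 to 14.8%). The ranges did not overlap between LPS and steady state in either precipitate, nor between HA and IgG in the Sall1 line. They overlapped between HA and IgG in the Lyve1 line, after LPS and at steady state. The share of Psmb9 with Psmb6 was 2.94 ± 1.29% in LPS HA libraries and 1.34 ± 0.69% in steady-state HA libraries, with overlap. The share of Psmb10 with Psmb7 was 80.7 ± 3.93% after LPS and 73.9 ± 2.82% at steady state in HA libraries, with overlap too. The shares were not tested.

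**Figure D2:**
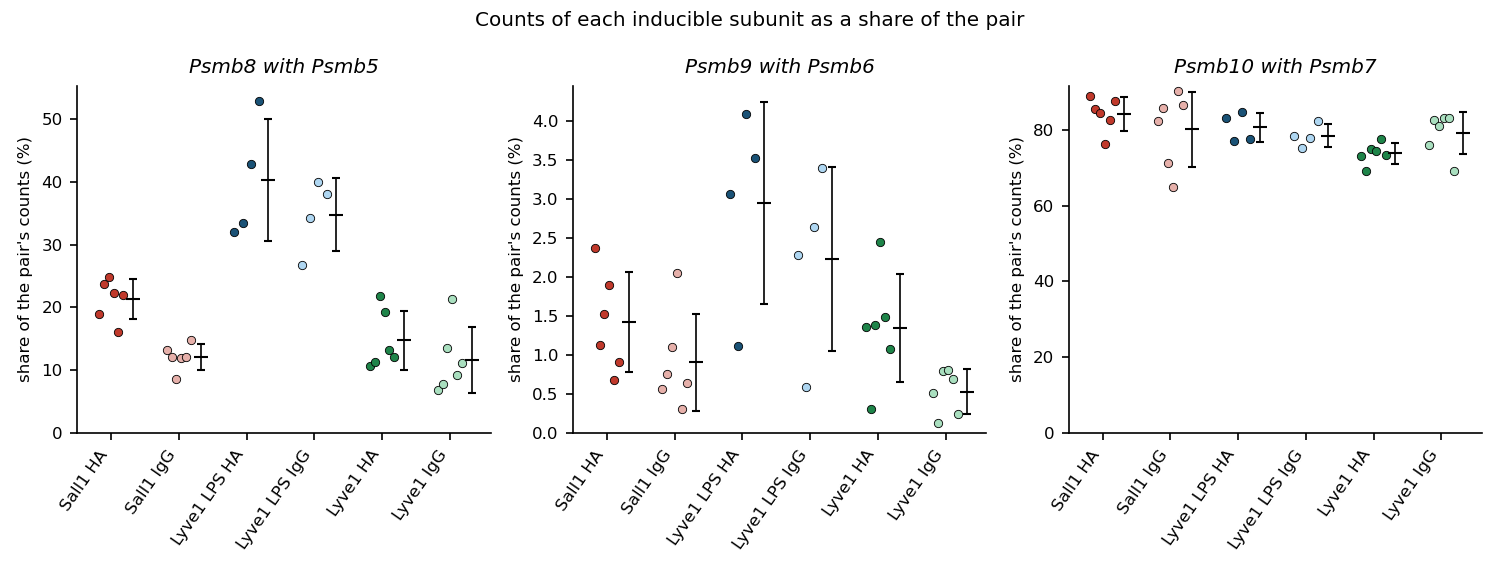
Share of each immunoproteasome subunit in the summed counts of itself and its constitutive counterpart, in percent, 1 point per library with bars at the mean ± SD, for the 6 groups. The Psmb8 share reaches 52.9% in an LPS HA library and is 21.9% at most in steady-state Lyve1 HA libraries.

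Summed over the 31 standard subunits of core and regulatory particle, the level was 5811 ± 328 CPM in LPS HA libraries and 6068 ± 408 CPM in steady-state HA libraries, and the ranges overlapped. The summed level of the 5 immunoproteasome and PA28 genes was 769 ± 166 CPM after LPS (639 to 998) and 457 ± 45.3 CPM at steady state (397 to 507). By class, 1 of 7 alpha-ring, 2 of 7 beta-ring, 0 of 6 ATPase and 2 of 11 non-ATPase genes passed, and differences between the classes were not tested. Of the 7 alpha-ring genes, which build the outer rings of the barrel, none had a positive estimate after LPS and the median was -0.29, but Psma6 was the only one to pass. Psma6 had 69.6, 29.2, 64.4 and 18.3 CPM in the LPS HA libraries, against 55.3, 86.9 and 106 CPM as lowest, median and highest at steady state. Libraries 1-2 and 2-2 were low and the others lay within the steady-state range (log2 -0.76 ± 0.25, adjusted p = 0.0373, lost in 6 of 10 fits that left out a library).

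In the beta rings, Psmb3, a non-catalytic subunit, had 126, 166, 130 and 199 CPM in LPS HA libraries, against 56.4, 101 and 117 CPM as lowest, median and highest at steady state. It did not overlap between the groups (log2 0.69 ± 0.18, adjusted p = 0.0070). Psmb4, another non-catalytic subunit, had 743, 567, 713 and 510 CPM after LPS, against 697, 901 and 1165 CPM at steady state. It was lower after LPS, with overlap in libraries 1-1 and 2-1 (log2 -0.49 ± 0.15, adjusted p = 0.0181). The 6 ATPases, which unfold substrates, gave 0 calls, with a median of -0.10.

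Among the 11 non-ATPase subunits of the regulatory particle, Psmd14, the deubiquitinase that removes the ubiquitin chain, had 35.6, 14.1, 12.4 and 19.8 CPM in LPS HA libraries. At steady state its lowest, median and highest values were 29.4, 49.9 and 90.2 CPM. Library 1-1 overlapped with the steady-state range and the other 3 lay below it (log2 -1.31 ± 0.31, adjusted p = 0.0042). Psmd2, a scaffold subunit of the base, had 203, 332, 263 and 348 CPM after LPS, against a median of 193 CPM and a range of 157 to 285 CPM at steady state. It passed as higher, with overlap (log2 0.49 ± 0.16, adjusted p = 0.0363). Over the 43 genes, 6 had groups that did not overlap, against 10.7% of all genes tested. The 33 genes that did not pass lay between -0.89 (Psma3) and 0.42 (Psme4).

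**Figure D3:**
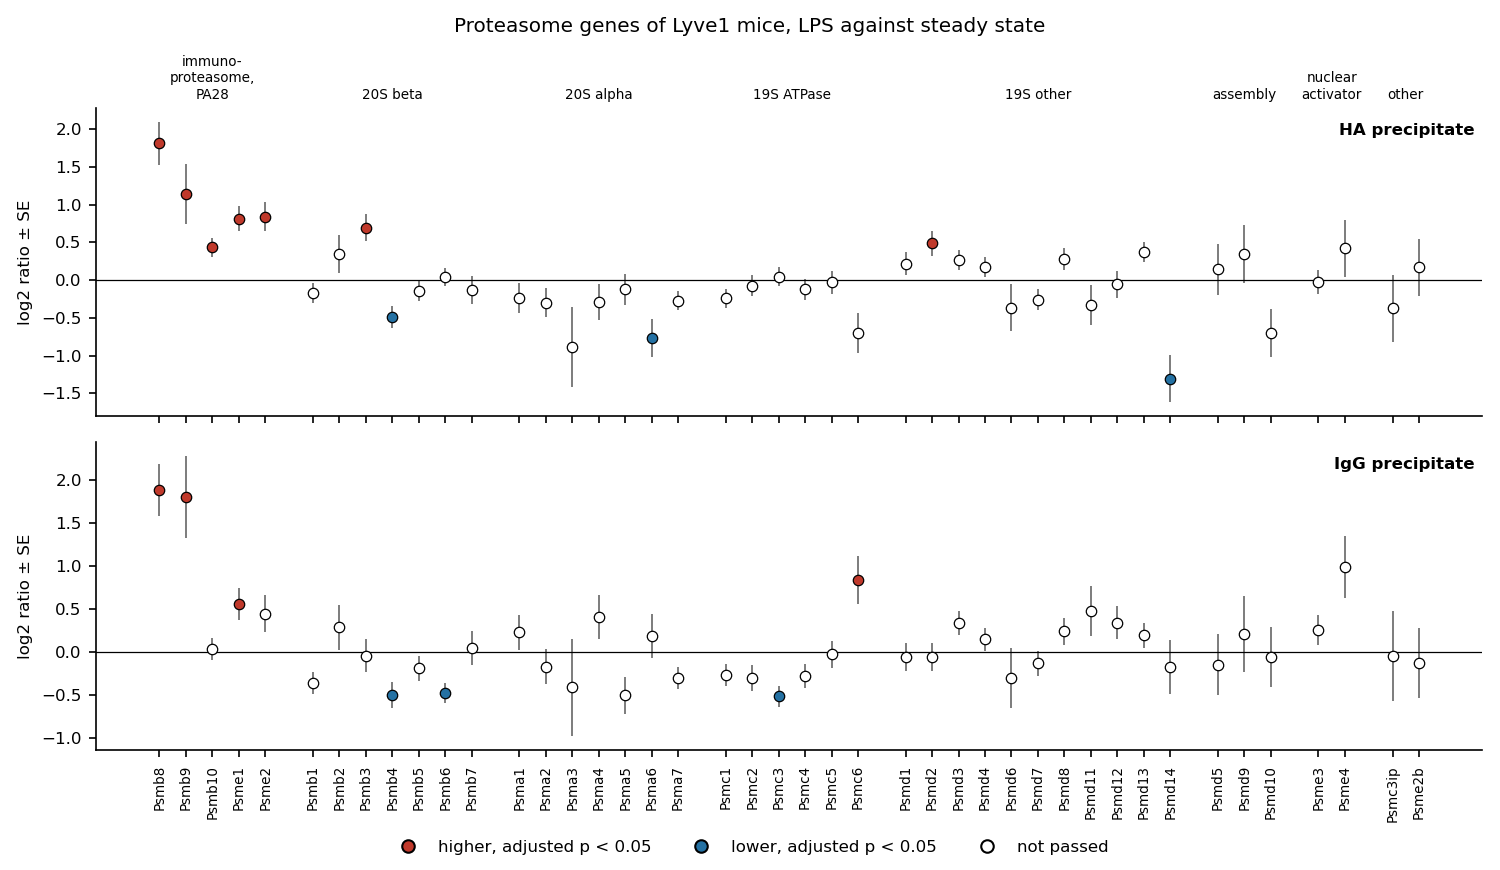
Log2 change of each proteasome gene after LPS against steady state in Lyve1 HA and IgG precipitates, dots with SE, grouped by class, with genes that passed as higher in red, those that passed as lower in blue and the others in white. The immunoproteasome and PA28 genes stand at the left, with Psmb8 at 1.81 in HA and 1.88 in IgG precipitates.

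The same comparison was made in the IgG precipitates, which measure the tissue background. Here 4 genes were higher after LPS (Psmb8, Psmb9, Psme1 and Psmc6) and 3 were lower (Psmc3, Psmb6 and Psmb4), which is 7 of 43 against 13.4% of all genes tested (6.92% higher and 6.44% lower). Without LPS IgG library 2-2 the count was 4. Psmb8 had 77.3, 71.5, 111 and 92.8 CPM in LPS IgG libraries, against 14.0, 21.8 and 40.2 CPM as lowest, median and highest in steady-state IgG libraries. As in the HA precipitates, no LPS library fell in the steady-state range (log2 1.88 ± 0.30, adjusted p = 9.1e-05). Psmb9 had 10.2, 2.86, 13.2 and 16.7 CPM after LPS, against 0.872, 3.67 and 5.67 CPM at steady state. Library 1-2 overlapped, and it rested on 1 count (log2 1.80 ± 0.48, adjusted p = 0.0093, and 0.0970 without LPS IgG library 2-2).

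Psme1 had 67.1, 51.5, 92.1 and 126 CPM in LPS IgG libraries, against 48.8, 57.9 and 74.0 CPM at steady state. Libraries 1-1 and 1-2 lay within the steady-state range (log2 0.56 ± 0.18, adjusted p = 0.0379, lost in 7 of 10 fits that left out a library and 0.435 without library 2-2). Psmb10 averaged 249 ± 38.9 CPM after LPS and 245 ± 26.3 CPM at steady state, with an interval of -0.22 to 0.29. Psme2 averaged 54.8 ± 11.1 CPM after LPS and 42.0 ± 9.27 CPM at steady state (log2 0.44, adjusted p = 0.189).

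The active-site subunit Psmb6 had 438, 481, 487 and 475 CPM in LPS IgG libraries, against 561, 685 and 716 CPM as lowest, median and highest at steady state. The groups did not overlap (log2 -0.48 ± 0.12, adjusted p = 0.0055). Psmc3, an ATPase, had 260, 280, 309 and 337 CPM after LPS, all below the steady-state range of 405 to 457 CPM (log2 -0.52 ± 0.13, adjusted p = 0.0041). Psmb4 averaged 734 ± 76.2 CPM after LPS and 1039 ± 178 CPM at steady state (log2 -0.50, adjusted p = 0.0181). The 31 standard subunits summed to 5173 ± 41.9 CPM in LPS IgG libraries (5140 to 5234) and to 5968 ± 260 CPM in steady-state IgG libraries (5661 to 6304), without overlap. Groups did not overlap for 4 of the 43 genes, against 13.3% of all genes tested.

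The difference between the LPS changes of the HA and the IgG precipitates was tested as an interaction, and 1 of 43 genes passed, as lower, against 3.23% of all genes (1.64% higher and 1.59% lower). This was Psmc6, an ATPase of the regulatory particle. It had 34.0, 23.9, 28.5 and 30.4 CPM in LPS HA libraries and a median of 47.4 CPM (29.9 to 70.0) in steady-state HA libraries. In the IgG precipitates it had 33.5, 85.8, 40.8 and 34.4 CPM after LPS and a median of 23.3 CPM (13.4 to 37.6) at steady state. The estimates ran in opposite directions, and the difference was -1.54 ± 0.39 (adjusted p = 0.0219). It was lost without LPS HA library 1-2 or without LPS IgG library 1-2, whose 85.8 CPM stood apart from the rest of its group. With the first library number as a block 4 genes passed (Psmc6 at -1.52, Psmb3 at 0.78, Psmc3 at 0.57 and Psmb6 at 0.51), and 742 of the 9680 genes tested, against 313 without the block.

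For the immunoproteasome and PA28 genes the interaction did not pass. Psmb8 gave -0.07 with an interval of -0.88 to 0.74, so differences within that interval, in either direction, were not excluded. Psmb10 gave 0.40 (0.05 to 0.76, adjusted p = 0.199), Psme1 0.26 (-0.23 to 0.74) and Psme2 0.40 (-0.18 to 0.97). Psmb9 gave -0.66 (-1.86 to 0.55). That Psmb10 and Psme2 passed in HA and not in IgG precipitates is therefore not shown to be a difference between them.

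The LPS libraries differed among themselves. In both precipitates, each of the 5 immunoproteasome and PA28 genes was higher in both libraries with the first number 2 than in both with the first number 1. Over all 43 genes this order was found for 6 in HA and 13 in IgG libraries. Library 2-2 of the LPS HA group was the highest for all 5 of these genes and for 20 of the 43. The neutrophil genes S100a8 and S100a9 had 22.8 and 107 CPM in that library, and 5.31 to 21.2 and 18.2 to 48.3 CPM in the other LPS HA libraries. Of 6 neutrophil and monocyte markers 3 were listed, and they summed to 36.3 to 132 CPM in LPS HA libraries, against 4.33 to 54.4 CPM in steady-state HA libraries. In the IgG libraries they summed to 5.72 to 27.6 CPM after LPS and to 1.32 to 13.6 CPM at steady state. Ly6g, Ccr2 and Plac8 were not listed, and none of the 4 lymphocyte markers was.

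Other marker lists moved with LPS as well. The 6 endothelial markers summed to 239 to 307 CPM in LPS HA libraries and to 57.1 to 102 CPM in steady-state HA libraries, with 4 of 5 tested higher. In IgG libraries they summed to 140 to 160 CPM after LPS and to 46.5 to 78.9 CPM at steady state, with 2 of 5 higher. The 6 astrocyte markers summed to 1279 to 1536 CPM after LPS and 490 to 851 CPM at steady state in HA libraries, with 2 higher. In IgG libraries they summed to 1432 to 1663 and 511 to 767 CPM, with 1 higher. Much of these differences lay in Gfap, at 627 to 1117 CPM after LPS and 110 to 280 CPM at steady state in HA libraries. In IgG libraries Gfap had 668 to 903 and 108 to 173 CPM. Of the 6 estimates 4 were positive and 2 negative in either precipitate. Of the 6 oligodendrocyte markers 3 were lower in either precipitate. Their sums overlapped, at 3606 to 4896 CPM after LPS and 4114 to 7308 CPM at steady state in HA libraries, and at 4847 to 6115 and 3953 to 6658 CPM in IgG libraries. Of the 8 neuronal markers 1 was lower in HA and 1 was higher in IgG precipitates. The 12 microglial markers summed to 1780 to 2313 CPM after LPS and to 897 to 1476 CPM at steady state in HA libraries. Much of that difference lay in C1qa, at 760 to 1086 CPM after LPS and 297 to 521 CPM at steady state. C1qb had 504 to 797 and 219 to 445 CPM in the same order, and C1qc 184 to 230 and 91.5 to 145 CPM. Of 9 microglial markers tested in HA, 3 were higher and 0 lower, with 7 positive and 2 negative estimates. P2ry12 was at 0 in 3 of 4 LPS HA libraries and in all 4 LPS IgG libraries. The 8 border macrophage markers summed to 103 to 135 CPM after LPS and to 78.3 to 213 CPM at steady state in HA libraries. The part of these shifts in the proteasome changes was not tested.

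Genes of the class I presentation and interferon list, which act beside the immunoproteasome, were 11 higher and 0 lower of 17 tested in HA precipitates after LPS, where 9.46% of all genes were higher. Their median log2 change was 1.38. Tap1 and Tap2, the transporter of class I peptides, averaged 32.2 ± 15.8 and 59.9 ± 18.8 CPM after LPS, against 5.59 ± 2.93 and 15.7 ± 4.85 CPM at steady state. Their log2 changes were 2.45 ± 0.36 (adjusted p = 6.18e-06) and 1.89 ± 0.27 (adjusted p = 3.71e-06). The interferon-induced membrane gene Ifitm3 changed by 2.96, the transcription factors Irf1 and Stat2 by 2.34 and 1.46, and the antiviral tetherin gene Bst2 by 1.83, and all of them passed. In the IgG precipitates 8 of 17 were higher and 1 was lower, with a median of 0.83. There the strongest calls included Ifitm3 at 3.56, Bst2 at 2.15, Tap1 at 1.77, the class I light chain B2m at 1.36 and Irf9 at 1.13, while Calr, a chaperone of class I loading, was lower at -1.31. The interaction of LPS and precipitate passed for Calr (1.22).

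**Figure D4:**
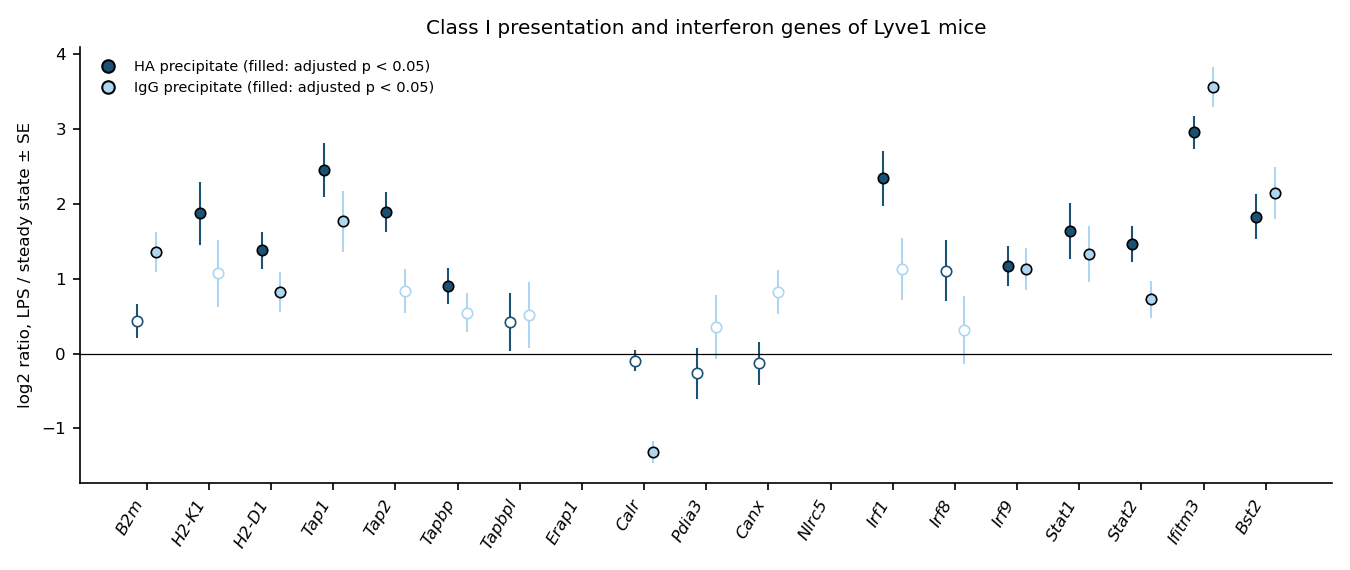
Log2 change after LPS against steady state of the class I presentation and interferon genes in Lyve1 precipitates, dots with SE, dark blue for HA and light blue for IgG. Filled dots mark genes that passed in either direction, and open dots those that did not. In HA precipitates 11 of 17 genes passed as higher, with Ifitm3 at 2.96.

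The genes of proteasome assembly and regulation gave 1 higher and 2 lower of 14 tested in HA precipitates after LPS, a share near the 17.5% of all genes. Shfm1, a small subunit of the regulatory particle, rose by 0.44, Psmg4, a core assembly chaperone, fell by 0.57, and Usp14, a deubiquitinase of the proteasome, fell by 1.26 on the log2 scale. In IgG precipitates Nfe2l2, a transcription factor of the oxidative stress response, was the only one of the 14 that passed, at 1.65, and its interaction passed at -1.93 ± 0.47 (adjusted p = 0.0199).

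HA was then set against IgG, to ask which proteasome transcripts were above the tissue background on tagged ribosomes. In the Sall1 line 5 genes were higher in HA precipitates (Psmb8, Psmb10, Psme1, Psmd8 and Psmd10) and 1 was lower (Psmc4). These are 6 of the 42 genes tested, against 9.8% of the 9619 genes tested (4.81% higher and 4.99% lower). Psmb9 failed the filter on low counts in the steady-state table, with 61 counts over the 6 Sall1 HA libraries and 34 over the 6 Sall1 IgG libraries. In the immunoproteasome and PA28 group 3 of 4 tested genes passed, at a median of 0.48, against -0.01 over all genes.

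Psmb8 had a lowest of 26.5, a median of 37.4 and a highest of 47.0 CPM in Sall1 HA libraries, against 14.0, 22.0 and 23.0 CPM in Sall1 IgG libraries. Every HA library was above every IgG library, which held for this 1 proteasome gene and for 3.59% of all genes (log2 0.87 ± 0.24, adjusted p = 0.0159). Psmb10 had 265, 293 and 377 CPM in HA libraries, against 199, 224 and 289 CPM in IgG libraries. The groups overlapped in part (log2 0.41 ± 0.12, adjusted p = 0.0241). Psme1 had 71.2, 105 and 112 CPM in HA libraries, against 57.7, 68.4 and 87.9 CPM in IgG libraries, again with some overlap (log2 0.51 ± 0.14, adjusted p = 0.0152). Psme2 had 54.8, 64.2 and 74.5 CPM in HA libraries and 30.8, 49.7 and 58.6 CPM in IgG libraries (log2 0.46 ± 0.16, adjusted p = 0.0573, not passed).

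Psmd8, a lid subunit, averaged 181 ± 24.5 CPM in Sall1 HA libraries and 125 ± 23.0 CPM in Sall1 IgG libraries (SD, n = 6 each; log2 0.52 ± 0.14, adjusted p = 0.0135). Psmd10, the assembly chaperone gankyrin, averaged 21.4 ± 5.17 and 12.1 ± 2.69 CPM in the same order (log2 0.82 ± 0.24, adjusted p = 0.0223). Psmc4, an ATPase, was lower at 111 ± 17.0 CPM in HA libraries, against 150 ± 33.0 CPM in IgG libraries (log2 -0.44 ± 0.13, adjusted p = 0.0285). The 36 tested genes that did not pass lay between -0.56 (Psme4) and 0.57 (Psma4). No alpha-ring or constitutive beta-ring gene passed. Psmb5, Psmb6 and Psmb7 gave -0.08, -0.09 and 0.04. The count was 2 without Sall1 IgG library 1-1 or 1-2 and 3 without Sall1 HA library 3-1. Over all genes 567 passed without Sall1 IgG library 1-1, against 943 with all libraries. The count was 0 without the 8 Sall1 libraries with Y-linked counts, where Psmb8 gave 0.61 and 69 of all genes passed. It was also 0 when libraries of the same first number were summed to 3 samples per group, where Psmb8 gave 0.88. Of all genes 163 passed when summed. With the first library number as a block the count was 8, among them the 6 above and Psme2 (adjusted p = 0.0323), and 1589 of all genes passed.

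In the Lyve1 line after LPS, 7 of 43 genes were higher in HA than in IgG precipitates and 0 were lower, against 9.62% of all genes tested (5.22% higher and 4.4% lower). The count was 4 without LPS HA library 2-2 or without LPS IgG library 1-2. They were Psme1, Psmd13, Psmd4, Psme2, Psmd8, Psmb10 and Psmc3, and for each the groups did not overlap. In all, 9 of the 43 had groups that did not overlap, against 15.2% of all genes. Psme1 averaged 176 ± 26.0 CPM in LPS HA libraries and 84.2 ± 32.6 CPM in LPS IgG libraries (log2 1.0 ± 0.19, adjusted p = 0.0007), and Psme2 averaged 108 ± 44.3 and 54.8 ± 11.1 CPM (log2 0.90 ± 0.23, adjusted p = 0.0087). Psmb10 had 300 to 405 CPM in LPS HA libraries, all above the 201, 235, 280 and 281 CPM of the LPS IgG libraries (log2 0.50 ± 0.14, adjusted p = 0.0206). Psmb8 did not pass, at 0.32 with an interval of -0.27 to 0.91, nor did Psmb9, at 0.40 with an interval of -0.44 to 1.25.

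Psmd13, a lid subunit, had 229, 198, 221 and 259 CPM in LPS HA libraries, against 123, 117, 115 and 164 CPM in LPS IgG libraries (log2 0.79 ± 0.16, adjusted p = 0.0010). Psmd4, a ubiquitin receptor, had 369, 431, 361 and 431 CPM against 236, 269, 236 and 289 CPM (log2 0.63 ± 0.15, adjusted p = 0.0050). Both stood above the IgG libraries in every HA library. Psmd8 gave 0.63 ± 0.17 (adjusted p = 0.0136) and Psmc3 0.46 ± 0.14 (adjusted p = 0.0259). The 36 genes that did not pass lay between -0.78 (Psme4) and 0.58 (Psmb3). The 6 endothelial markers also differed, with sums of 239 to 307 CPM in LPS HA libraries and 140 to 160 CPM in LPS IgG libraries and with 2 of 5 tested higher. Their part in these calls was not tested.

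In the Lyve1 line at steady state, 10 genes were higher in HA precipitates and 3 were lower, which is 13 of 42 tested, against 25.7% of all genes tested (11.7% higher and 14% lower). Without Lyve1 IgG library 2-2 the count was 8. The higher genes were mostly of the regulatory particle: 6 of 11 non-ATPase subunits (Psmd13, Psmd8, Psmd12, Psmd4, Psmd3 and Psmd11) passed as higher and Psmd2 passed as lower, with a median of 0.42 over the class. Psme1, Psme2, Psme3 and the ATPase Psmc6 were also higher, and Psmb6 and Psmc4 were lower. Psme1 had 77.5, 101 and 117 CPM as lowest, median and highest in HA libraries, against 49.2, 58.3 and 73.3 CPM in IgG libraries. All HA libraries were above all IgG libraries (log2 0.72 ± 0.14, adjusted p = 0.0004). Psme2 averaged 58.3 ± 7.15 CPM in HA libraries and 42.1 ± 9.14 CPM in IgG libraries (log2 0.48 ± 0.16, adjusted p = 0.0275).

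Psmd13 averaged 173 ± 14.2 CPM in Lyve1 HA libraries and 114 ± 19.3 CPM in Lyve1 IgG libraries (log2 0.59 ± 0.13, adjusted p = 0.0011), without overlap. Psmd4 averaged 348 ± 23.1 and 233 ± 49.2 CPM (log2 0.58 ± 0.17, adjusted p = 0.0125), and Psmd12, a lid subunit, 73.2 ± 11 and 47.8 ± 5.31 CPM (log2 0.60 ± 0.16, adjusted p = 0.0058), both without overlap. Psme3, which forms the nuclear PA28 ring, averaged 67.6 ± 6.72 and 46.7 ± 6.89 CPM (log2 0.53 ± 0.14, adjusted p = 0.0054). The other calls gave 0.57 (Psmd8), 0.42 (Psmd3), 0.90 (Psmc6), 0.76 (Psmd11), -0.62 (Psmd2), -0.36 (Psmc4) and -0.34 (Psmb6). Of the 42 genes tested, 7 had groups that did not overlap, against 13.6% of all genes. Psmb8 averaged 30.8 ± 12.8 CPM in HA libraries and 24.5 ± 9.40 CPM in IgG libraries, and did not pass (log2 0.36, interval -0.12 to 0.83, adjusted p = 0.287). Psmb10 gave 0.07 (-0.17 to 0.31, adjusted p = 0.702).

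**Figure D5:**
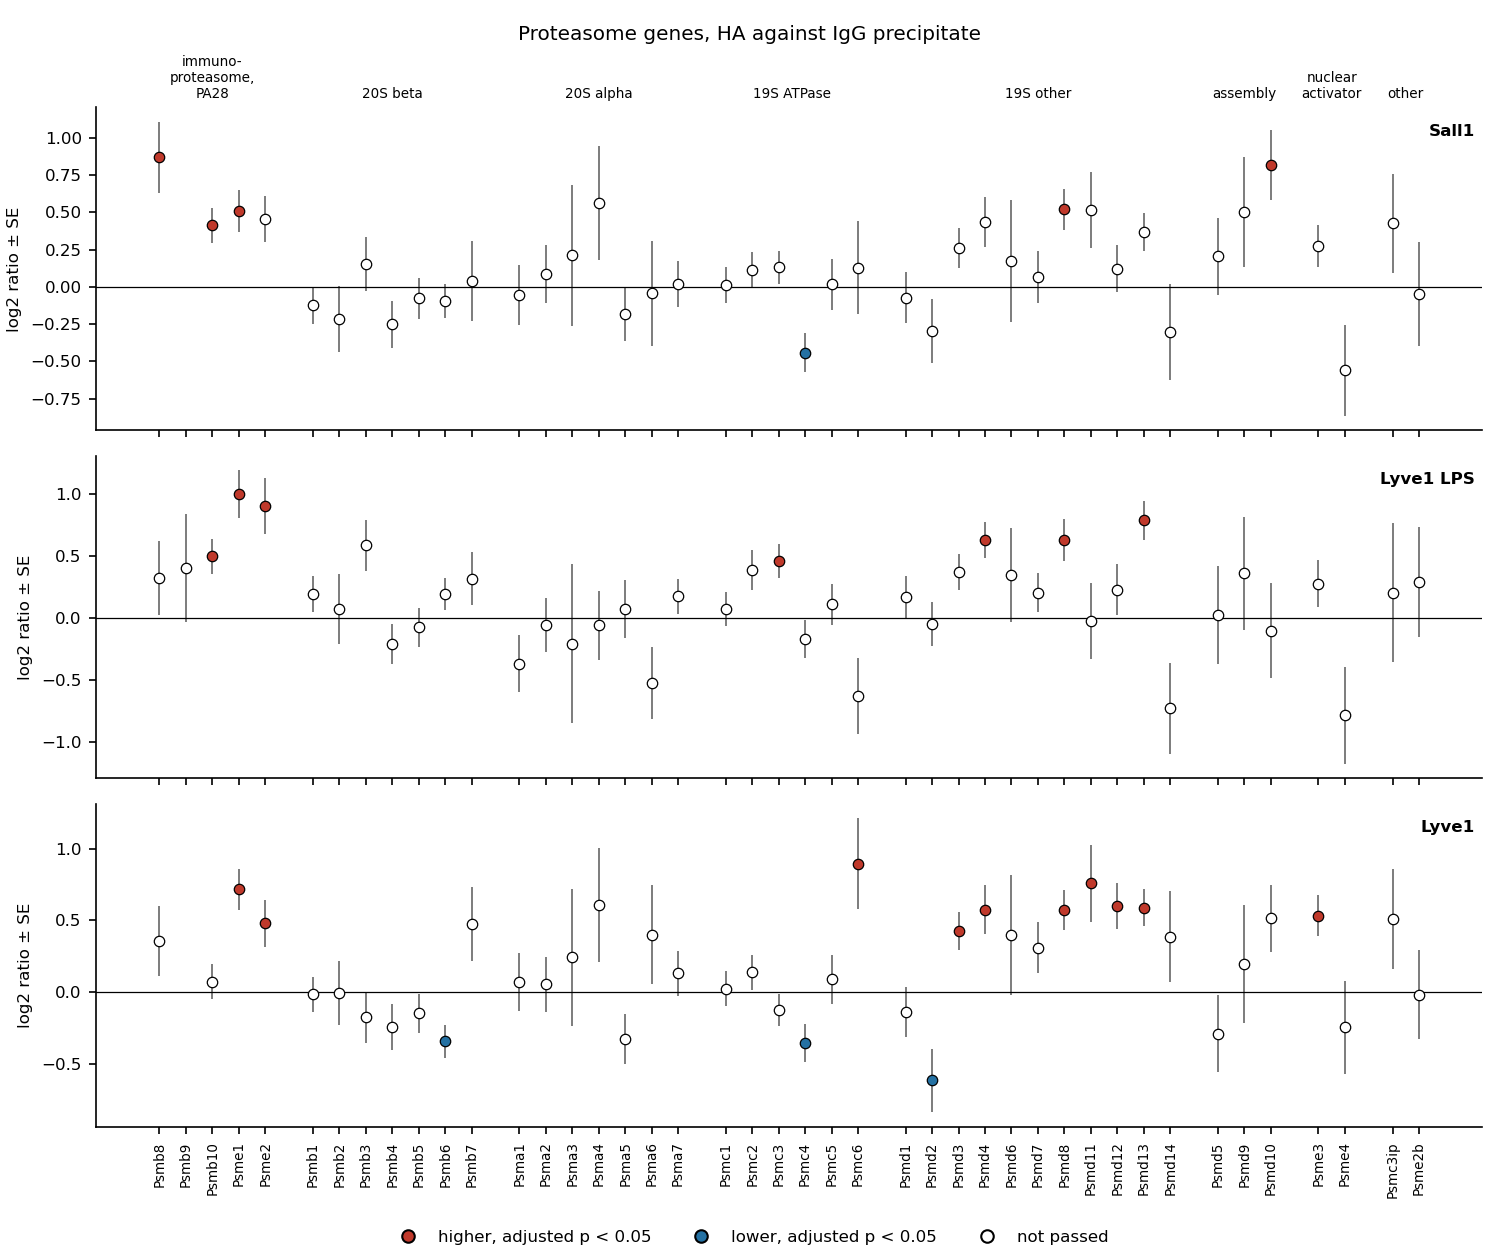
Log2 ratio of HA over IgG for each proteasome gene in Sall1, LPS-treated Lyve1 and steady-state Lyve1 libraries, dots with SE, grouped by class, with genes higher in HA in red, lower in blue and not passed in white. Psme1 and Psmd8 are red in all 3 panels, and Psmb9 is absent where it was not tested.

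These 3 comparisons share no library. Psme1 and Psmd8 passed as higher in HA in all 3, and Psmb10, Psmd13, Psmd4 and Psme2 as higher and Psmc4 as lower in 2. A further 10 genes passed in 1 comparison, and 26 passed in none. Of the 42 genes tested in all 3 these are 2 in 3 comparisons, 5 in 2 and 10 in 1, against 2.96%, 7.3% and 22.1% of the 9430 genes tested in all 3. In class I presentation and interferon genes the HA precipitates were higher for B2m (log2 1.54), Bst2 (1.11) and Irf8 (1.18) in the Sall1 line, with 3 of 15 higher and 0 lower. At steady state in the Lyve1 line 4 of 15 were higher (B2m at 1.56, Ifitm3, Bst2 and Pdia3) and Calr and Stat2 were lower. After LPS 3 of 17 were higher (Ifitm3 at 1.10, H2-D1 at 0.94 and Tap2 at 0.93). Of 14 assembly and regulation genes tested, 1 was higher and 0 lower in the Sall1 line, where 9.8% of all genes passed. In the Lyve1 line 2 were higher and 1 lower both after LPS and at steady state, where 9.62% and 25.7% of all genes passed. Shfm1 passed as higher in the Sall1 line (0.68) and after LPS (1.06), and Pomp, the chaperone of core assembly, in both Lyve1 comparisons (0.68 after LPS and 0.70 at steady state). Nfe2l2 passed as lower in HA after LPS, at -1.44. At steady state in the Lyve1 line Psmg4 passed as higher in HA (0.78) and Ube3c as lower (-0.48). The neuronal, astrocyte and oligodendrocyte marker sums overlapped between HA and IgG in all 3 comparisons, the endothelial sums in those at steady state only, and the microglial sums in none. The part of these marker levels in the proteasome differences was not tested.

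Sall1 HA precipitates were set against Lyve1 HA precipitates at steady state, and 0 of 42 tested proteasome genes passed, against 1.4% of all genes (1.24% higher and 0.166% lower). At an unadjusted p under 0.05 there were 7 genes, near the 15.6% of all genes, and the DESeq2 Wald test and limma-voom called 0. The 3 with the smallest p were Psmd12 (log2 -0.42), Psme3 (-0.34) and Psmd14 (-0.77), all lower in Sall1 HA. Psmb10 averaged 313 ± 49.9 CPM in Sall1 HA and 258 ± 27.0 CPM in Lyve1 HA libraries (0.28, interval 0.04 to 0.52, adjusted p = 0.252), and Psmb8 37.3 ± 7.05 and 30.8 ± 12.8 CPM (0.26, interval -0.20 to 0.71). The 42 tested genes had a median of -0.09. When 8 Sall1 libraries were omitted for their Y-linked counts, leaving 2 in the Sall1 HA group, 7 genes passed, Psmb10 (0.54) and Psmd2 (0.73) as higher and Psma6, Psma7, Psmd6, Psmd12 and Psmd14 as lower (-1.89 to -0.62). In that fit 8.78% of all genes passed, against 1.4% with all libraries. Of the class I and interferon genes Irf8, a macrophage transcription factor, passed at 1.27. The difference between the lines in the HA over IgG ratio gave 0 of 42 calls, against 0.218% of all genes (0.208% higher and 0.0104% lower), and 1 gene at an unadjusted p under 0.05 (Psmd12, -0.48), against 6.1% of all genes. Its estimate was 0.51 for Psmb8 (interval -0.15 to 1.18), 0.34 for Psmb10 (0.01 to 0.68), -0.21 for Psme1 (-0.60 to 0.18) and -0.02 for Psme2 (-0.46 to 0.41). The Psmb8 and Psmb10 calls of the Sall1 line are therefore not shown to differ from the Lyve1 line.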

How the data were processed

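The samples were RNA precipitates of mouse hemibrain, made with anti-HA antibody or IgG and sequenced from the 3′ end (MARS-seq), as the labels' protocols state. The build was mm9, per the submitters' processing notes; aligner and counter are not given in the sources used here. The deposited values used are raw counts for each gene in each library, per the file headers, in which no listed gene has a maximum count under 6. The 12 libraries present in both of the 2 tables hold the same counts for the proteasome genes. Column names set the group of each library, and 28 library columns belonging to no sample were left aside. The members and lists were chosen with earlier results of these data known.

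Each table was analysed with R 4.3.3. The filter on low counts was filterByExpr (minimum count 10, minimum total 15), which left 9619 and 9680 genes. TMM scaling and edgeR 4.0.16 followed (robust quasi-likelihood, the 4 groups of a table together, 20 and 16 residual degrees of freedom), and a gene passed with an adjusted p under 0.05 (Benjamini-Hochberg over all genes tested). SE is the log2 ratio over the square root of F, and intervals are 1.96 SE to either side. CPM are TMM-scaled and were not compared between genes. The closest libraries of a group differed by a chi-square of 1.76 per degree of freedom, so none was counted as a duplicate. The fits were tested on simulated data. Alternatives were DESeq2 1.42.0 (size factors, Wald test), limma 3.58.1 (voom), library totals, no filter, the groups compared only, a replicate block, a block by first number (added after the data were seen), counts summed by first number, Sall1 libraries omitted (those of first number 3, or those in which Ddx3y plus Eif2s3y reached 10 counts), and each library omitted in turn. Every member could be named, and of other pathway genes those that passed, up to 6 per comparison and list with the smallest p. A further list of pathway genes is not reported here.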

Additional observations from a re-analysis of the deposited data

Results flagged for a closer look

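The LPS change of Psmc6 differed between the HA and IgG precipitates of the Lyve1 line, by an interaction term of -1.54 on the log2 scale (SE 0.39, edgeR adjusted p = 0.0219). Levels were 29.2 ± 4.20 CPM after LPS and 48.9 ± 15.4 CPM at steady state in HA libraries, and 48.6 ± 25.0 CPM after LPS and 25.2 ± 8.42 CPM at steady state in IgG libraries (SD, n = 4 and 6). The LPS IgG mean rests largely on library 1-2, at 85.8 CPM, which also has the smallest total count, 362063. That library stood apart from the nearest of its group, at 40.8 CPM.

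Over 24 genes and 6 groups, 144 tests for a library standing apart were made, 1 per gene and group. Chance flags about 1 in 20 of such tests. They gave 6 flags, the Psmc6 value included, which is not above that rate. Psmd13 in Lyve1 HA library 2-1 was low at 145 CPM (next 173), and in LPS IgG library 2-2 it was high at 164 CPM (next 123). Psmd3 in LPS HA library 1-1 was high at 408 CPM (next 368). Psmc3 and Psmd14 in Lyve1 IgG library 2-1 were high at 458 and 64.7 CPM (next 427 and 37.5).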

How the results depend on the processing

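The count of proteasome genes passing in Sall1 HA against IgG was 6 and fell to 3 with only the groups compared, 0 with counts summed by first number and 0 without the libraries holding Y-linked counts (Psmb8 then gave 0.88 with adjusted p = 0.187 and 0.61 with adjusted p = 0.567), and 2 to 8 when each library was left out. Lyve1 HA against IgG at steady state gave 13, 3 when summed and 8 to 11 without 1 library. Sall1 HA against Lyve1 HA gave 0 and 7 without the libraries holding Y-linked counts, where only 2 Sall1 HA libraries remain. Lyve1 LPS HA against IgG gave 7, 3 when summed and 4 to 9 without 1 library. LPS against steady state gave 10 in HA, 6 when summed and 5 to 11 without 1 library, and 7 in IgG, 4 when summed and 4 to 8 without 1 library. The interaction gave 1, 4 with a block by first number, 3 with library totals, 3 with the DESeq2 Wald test, 0 when summed and 0 to 6 without 1 library. The count of 6 was without LPS HA library 1-1, where 890 of all genes passed, against 313 with all libraries. Summing leaves 2 or 3 samples per group.

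Calls over all genes are given as reported first and then under the alternatives that moved them by over 1.5 times, with left-out libraries given after these. Sall1 HA against IgG gave 943, 1589 (block by first number), 541 (groups compared), 163 (summed) and 69 (without Y-linked libraries). Lyve1 HA against IgG gave 2472 and 1005 (summed). Sall1 against Lyve1 HA gave 135, 209 (block), 29 (summed) and 900 (without Y-linked libraries). The enrichment difference gave 21, 4 (summed), 0 (without Y-linked libraries) and 32 (without first number 3, and with the block by first number). LPS HA against IgG gave 931 and 443 (summed), and HA after LPS 1690 and 1126 (summed). The interaction gave 313, 742 (block by first number), 543 (DESeq2), 502 (voom) and 70 (summed). Single left-out libraries also moved these counts by over 1.5 times. Sall1 HA against IgG gave 567 without Sall1 IgG library 1-1. LPS HA against IgG gave 535 without LPS IgG library 2-1, and HA after LPS 1044 without LPS HA library 1-2. The interaction gave 890 without LPS HA library 1-1 and 127 without LPS HA library 1-2. Signs turned for Psmb8 in Sall1 against Lyve1 HA (-0.0385 without Y-linked libraries), for Psme1 there (0.00881 with no filter, 0.0180 with voom, 0.0029 with the replicate block, 0.128 without first number 3, and -0.0687 to 0.0699 leaving out libraries) and for Psmb10 in IgG after LPS (-0.00690 with library totals, -0.0182 when summed, -0.0541 to 0.124 leaving out libraries). Leaving out 1 library also turned Psme2 in the enrichment difference (-0.138 to 0.0587), Psmb8 in LPS HA against IgG (-0.0121 to 0.479) and Psmb8 in the interaction (-0.382 to 0.188), which also turned with the block by first number (0.00434).

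The full numbers in the column names were not taken to pair the libraries. Correlations were taken on log CPM after each gene's mean over its group was subtracted. Same-number HA and IgG libraries correlated between -0.10 and 0.35, and with their own number best in 5 of 12 steady-state pairs. The first number did tie them in part. HA and IgG libraries sharing it correlated on average at 0.12 to 0.35 in the Sall1 line, 0.08 to 0.28 in the Lyve1 line and 0.05 to 0.06 after LPS, and those that did not share it at -0.20 to -0.04. Within a group, subtracting the mean pulls correlations below 0, so they are to be read against each other within that group. Libraries of the steady-state groups sharing the first number correlated at 0.05 to 0.29, against -0.31 to -0.26 for the others. After LPS these were -0.45 in HA and -0.21 in IgG, against -0.25 and -0.38. A block by first number, added after the data were seen, gave 8, 14 and 8 calls for HA against IgG in the Sall1 line, the Lyve1 line and after LPS, and all 6, 13 and 7 genes called without it remained. In the Sall1 line this block also raised the calls over all genes, from 943 to 1589. With a replicate block the proteasome counts were 8 for Sall1 HA against IgG, 13 for Lyve1 HA against IgG, 8 for LPS HA against IgG, 15 and 8 for LPS against steady state in HA and IgG, 1 for the interaction and 0 for both comparisons of the lines. Of 572 values of single genes under the other alternatives, 512 kept direction and side of the threshold, as did 656 of 790 when a library was left out. Depth limits Psmb9, which rests on 1 to 27 counts per library.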
